A study of Mus musculus with 12 samples.

Results

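The endosomal Toll-like receptors and their immediate partners were described here as 8 named genes: the receptors Tlr3, Tlr7, Tlr8 and Tlr9, the chaperone Unc93b1, the adaptor Myd88 and the kinases Irak1 and Irak4. They were found by symbol among 43613 named items of the expression tables, and 7 of the 8 passed the filter that left 14607 tested genes; Tlr8 did not. The libraries came from splenic B cells of female mice, 6 months old, on a C57BL/6J background. All mice carried Sle1b, a lupus susceptibility interval, and the study asked how the type I interferon receptor bears on B cell selection in the germinal centres (GC) of this autoimmune-prone strain.

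The 12 libraries formed 4 groups of 3, each with 1 library in each of 3 batches. They were Ifnar1KO GC and Ifnar1KO non-GC cells (genotype B6.Sle1b.IFNaR1-/-), and Sle1b GC and Sle1b non-GC cells (genotype B6.Sle1b). GC cells were sorted as live cells positive for B220, GL7 and CD95, and non-GC cells as live B220-positive cells lacking GL7 and CD95. The labels name no cell type to which the deletion is limited, and they speak of splenocyte pools without stating how many animals stand behind a group. The p-values thus cover only differences among these libraries, which may be technical.

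Endosomal Toll-like receptors detect nucleic acids that reach the endosome: double-stranded RNA for Tlr3, single-stranded RNA for Tlr7, and unmethylated CpG DNA for Tlr9. Unc93b1 carries these receptors out of the endoplasmic reticulum. Tlr7, Tlr8 and Tlr9 signal through Myd88, which recruits Irak4 and then Irak1, whereas Tlr3 signals through another adaptor, Ticam1. In mouse lupus models, B cell Tlr7 and Tlr9 are known for their part in responses to RNA and DNA autoantigens, and in human B cells type I interferon is known to raise the TLR7 transcript.

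Values are FPKM, read fragments scaled by transcript length and library size, so levels of different genes are compared per length. Batch 3 stood apart: between 104048 and 208065 loci without a gene name lay above 0 in batch 3, against 10129 to 61655 in batches 1 and 2. The summed level of 6 B cell markers was 19.9 to 221.5 FPKM in batch 3 and 1024 to 2002 FPKM in batches 1 and 2. The summed level of 8 GC markers separated the sorts in batches 1 and 2 (299 and 776 FPKM in Ifnar1KO GC against 57.5 and 89.7 FPKM in Ifnar1KO non-GC cells; 517 and 972 FPKM in Sle1b GC against 52.5 and 68.0 FPKM in Sle1b non-GC cells). In batch 3 it was 18.7 FPKM in Ifnar1KO GC against 20.7 FPKM in Ifnar1KO non-GC cells, and 20.8 FPKM in Sle1b GC against 19.2 FPKM in Sle1b non-GC cells, which does not separate them. Results that turn on it are therefore given with and without batch 3. Estimated reads on named genes, taken from the step between low values and the longest annotated transcripts, numbered 7274000 in the deepest library (Ifnar1KO GC replicate 1) and 886000 in the shallowest (Sle1b GC replicate 3).

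The targeted gene went against the label in batches 1 and 2. In GC cells Ifnar1 stood at 14.1, 15.4 and a listed 0 FPKM in the libraries labelled Ifnar1KO (batches 1, 2 and 3), against 8.11, 9.88 and 6.80 FPKM in Sle1b. In non-GC cells it stood at 51.1, 69.1 and 2.58 FPKM in the libraries labelled Ifnar1KO, against 14.5, 36.05 and 3.45 FPKM in Sle1b. The value covers the whole locus, including any part the targeting leaves, so it does not settle the genotype. Ifnar1KO below means the libraries so labelled.

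Unc93b1 was the most abundant of the 8 transcripts, and Tlr8 was at or near 0 throughout. Over the 8 libraries of batches 1 and 2, the median level was 49.2 FPKM for Unc93b1, 21.1 FPKM for Tlr9, 17.7 FPKM for Irak1, 12.2 FPKM for Irak4, 6.79 FPKM for Tlr7, 2.01 FPKM for Tlr3, 1.49 FPKM for Myd88 and 0 for Tlr8. Unc93b1 was the highest in 7 of these 8 libraries, and Irak4 in Ifnar1KO GC replicate 2. The ranges of neighbours in this order overlapped for each pair down to Tlr3 and Myd88: 21.2 to 69.0 FPKM for Unc93b1, 13.2 to 28.2 FPKM for Tlr9, 11.2 to 22.8 FPKM for Irak1, 1.14 to 28 FPKM for Irak4, 0 to 27.5 FPKM for Tlr7, 0.292 to 4.01 FPKM for Tlr3 and 0 to 10.5 FPKM for Myd88. Among all tested genes, Unc93b1 lay between percentiles 82.2 and 96.1 of these libraries, Tlr9 between percentiles 76.5 and 91.7, and Tlr3 between percentiles 28.3 and 52.9. In batch 3 no member exceeded 5.05 FPKM, and the order was not kept.

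**Figure D1:**
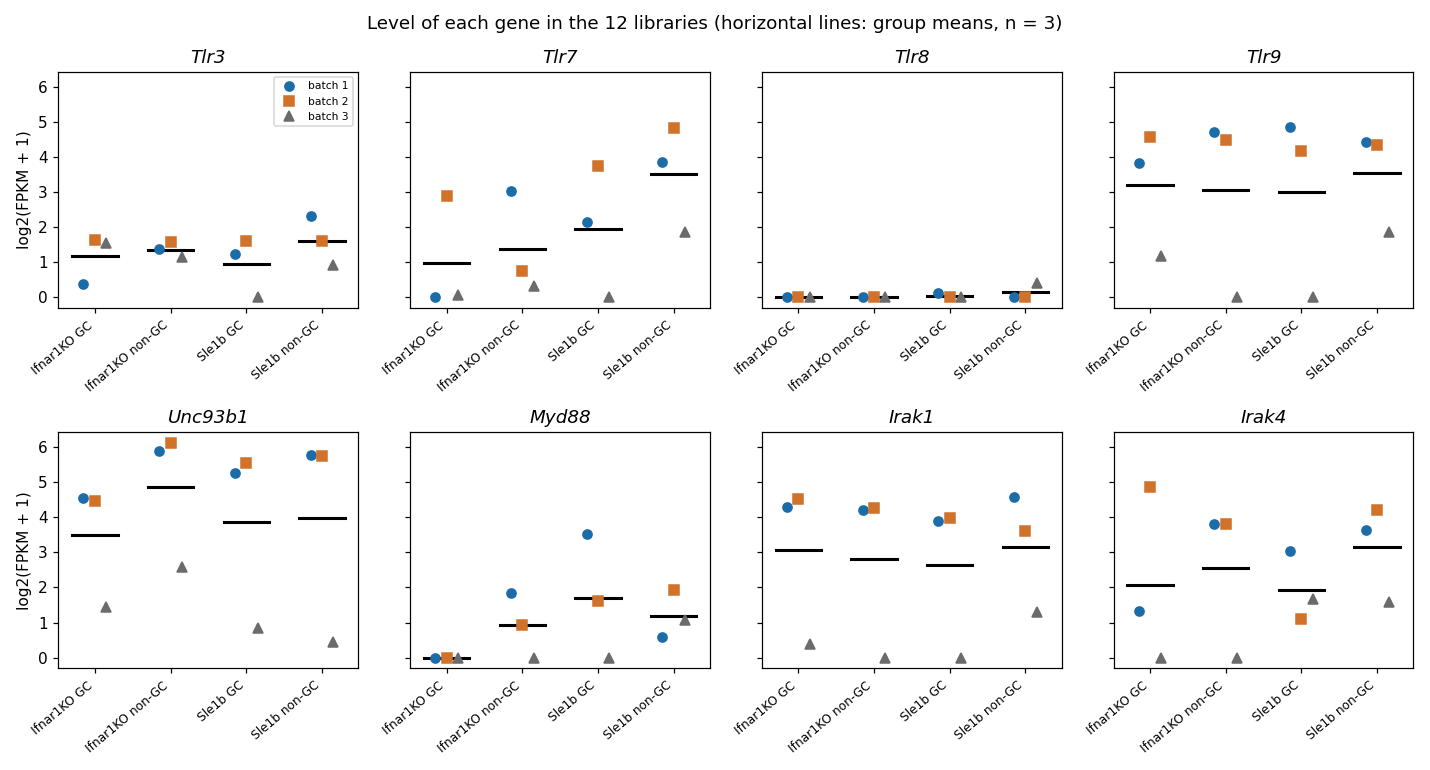
Level of each gene as log2(FPKM + 1) in the 12 libraries, by group, with symbols for the batches and horizontal lines for group means (n = 3). Unc93b1, Tlr9 and Irak1 lie high in every library of batches 1 and 2 and low in batch 3, while Tlr8 stays at or near 0.

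The tests were made with limma across all 14607 genes on log2(FPKM + 1), within batches, and p-values were adjusted by the Benjamini-Hochberg method and held against 0.05. None of the 7 tested members passed in any comparison. For Ifnar1KO minus Sle1b as the mean of both cell types, 0% of all tested genes passed, as in each cell type alone (0% and 0%) and in the interaction of genotype and cell type (0%). In GC minus non-GC, 0.0274% passed as the mean of both genotypes, 0.00685% in Ifnar1KO and 0% in Sle1b. Between genotypes, as the mean of both cell types, 577 of 14607 genes had an unadjusted p under 0.05. Of these, 135 were higher and 442 lower in Ifnar1KO. The 577 are a smaller share than the 0.05 expected with no difference at all, and the smallest adjusted p was 0.993.

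Tlr7, the receptor for single-stranded RNA, was lower in Ifnar1KO than in Sle1b libraries in 5 of 6 pairs, a difference that did not pass the test. The gene lies on chromosome X from 167304605 to 167330558 (GRCm38, minus strand), next to Tlr8. Among non-GC cells Tlr7 measured 7.17, 0.684 and 0.262 FPKM in Ifnar1KO batches 1, 2 and 3, against 13.6, 27.5 and 2.62 FPKM in Sle1b. These levels correspond to about 226, 11 and 5 reads in Ifnar1KO and about 343, 567 and 49 reads in Sle1b. All 3 Ifnar1KO non-GC libraries thus lay below the Sle1b library of their own batch, although the groups overlap when batches are pooled.

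In GC cells Tlr7 measured a listed 0, 6.41 and 0.0472 FPKM in Ifnar1KO batches 1, 2 and 3, against 3.42, 12.4 and a listed 0 FPKM in Sle1b. The Ifnar1KO library was lower in batches 1 and 2, and in batch 3 both lay under the level of 3 reads, which is 0.125 FPKM in Ifnar1KO and 0.230 FPKM in Sle1b. The log2 difference of Ifnar1KO minus Sle1b in non-GC cells was -2.15 (SE 0.83, unadjusted p = 0.0225, limma adjusted p = 1.00). The same difference in GC cells was -0.98 (SE 0.83, adjusted p = 0.831). As the mean of both it was -1.56 (SE 0.58, unadjusted p = 0.0195, adjusted p = 0.993), and without batch 3 it was -1.98 (SE 0.78, adjusted p = 0.995). A single library carried much of the difference: without Ifnar1KO non-GC replicate 2 it was -1.0 in non-GC cells and -0.99 as the mean. In GC cells it was -0.12 without Ifnar1KO GC replicate 1, where Tlr7 was listed at 0. The difference between the 2 cell types was 1.17 (SE 1.17, adjusted p = 0.992), so the effects were not shown to differ.

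Tlr7 was the only member with an unadjusted p under 0.05 in the mean comparison of genotypes, where 3.03% of all tested genes reached it with a lower level in Ifnar1KO; in non-GC cells 0.863% did. Of all tested genes, 6.44% were lower in Ifnar1KO non-GC than in Sle1b non-GC libraries in all 3 batches, and 7.32% were lower in at least 5 of the 6 pairs. Plasmacytoid dendritic cells, which can carry B220 and express Tlr7 and Tlr9, were represented by 8 markers. Their summed level was 55.0, 70.6 and 25.3 FPKM in Ifnar1KO non-GC cells, against 44.8, 72.3 and 19.2 FPKM in Sle1b non-GC cells. In GC cells it was 29.9, 77.2 and 3.90 FPKM in Ifnar1KO, against 92.6, 71.9 and 4.61 FPKM in Sle1b. Tcf4, which B cells express too, was the larger share of these sums in batches 1 and 2 and in Ifnar1KO non-GC replicate 3 (23.5 FPKM, against 4.79 FPKM in Sle1b non-GC replicate 3). Their defining marker Siglech stood at 7.15, 4.86 and a listed 0 FPKM in Ifnar1KO non-GC cells, against 2.51, 2.98 and 11.01 FPKM in Sle1b non-GC cells. It was listed at 0 in all 3 Ifnar1KO GC libraries, against 0.207, a listed 0 and 0.829 FPKM in Sle1b GC cells. The part of these cells in the Tlr7 values was not tested. Bulk libraries cannot tell fewer cells of a type from less RNA per cell.

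**Figure D2:**
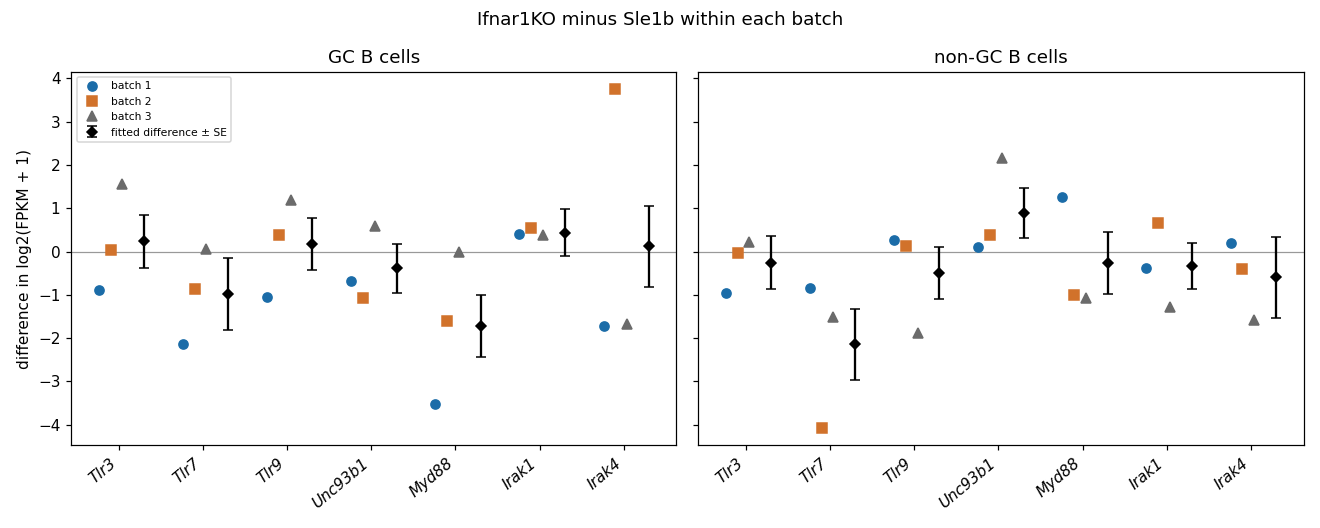
Difference in log2(FPKM + 1), Ifnar1KO minus Sle1b, in GC (left) and non-GC cells (right) for the 7 tested genes, per batch (symbols) and as fitted (diamonds, bars are SE). Tlr7 lies below 0 in all 3 batches of non-GC cells, at -0.84, -4.08 and -1.52, and Irak4 in GC cells spreads between -1.73 and 3.76.

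In single tables, which set 1 library against 1 other without replicates, the authors' own test called Tlr7 in 3 and Tlr9 in 2 of the 14 tables in which each was tested, of 17 in all. In the authors' deposited table of Ifnar1KO GC against Sle1b non-GC cells of batch 1, Tlr7 was listed at 0 against 13.4 FPKM, with q = 0.0120; 1.96% of the named loci tested in that table were called. In the authors' deposited table of Ifnar1KO GC against Sle1b GC cells of batch 1, it was listed at 0 against 2.51 FPKM, with q = 0.0373, where 1.08% were called. The remaining call on Tlr7 in an authors' deposited table was Sle1b GC (listed at 0) against Sle1b non-GC cells (2.35 FPKM) of batch 3, with q = 0.0293, where 13.4% were called. For Tlr9 the authors' deposited tables gave q = 0.0369 for Sle1b GC (listed at 0) against Sle1b non-GC cells (2.39 FPKM) of batch 3, the same table. They gave q = 0.0438 for Ifnar1KO non-GC (listed at 0) against Sle1b non-GC cells (2.33 FPKM) of that batch, where 14.5% were called. Every one of these 5 calls set a library listed at 0 against another.

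Tlr9, the receptor for CpG DNA, lay between 13.2 and 28.2 FPKM in batches 1 and 2. The gene lies on chromosome 9 from 106222598 to 106226883 (plus strand). It measured 13.2, 22.7 and 1.27 FPKM in Ifnar1KO GC cells and 25.2, 21.5 and a listed 0 FPKM in Ifnar1KO non-GC cells. In Sle1b it measured 28.2, 17.1 and a listed 0 FPKM in GC cells and 20.6, 19.5 and 2.67 FPKM in non-GC cells. In non-GC cells the Ifnar1KO library held more Tlr9 than its Sle1b partner except in batch 3, and in GC cells it did so except in batch 1. The log2 difference of Ifnar1KO minus Sle1b was -0.16 (SE 0.43) and that of GC minus non-GC was -0.21 (SE 0.43), and without batch 3 these were -0.06 (SE 0.34) and -0.14 (SE 0.34).

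Tlr3, the receptor for double-stranded RNA, was low. It lies on chromosome 8 from 45395665 to 45410608 (minus strand) and overlaps the annotated gene Gm45542, from which an unstranded count cannot separate it. It measured 0.292, 2.11 and 1.93 FPKM in Ifnar1KO GC cells, 1.60, 1.97 and 1.20 FPKM in Ifnar1KO non-GC cells, 1.37, 2.06 and a listed 0 FPKM in Sle1b GC cells, and 4.01, 2.05 and 0.901 FPKM in Sle1b non-GC cells. In batch 2 the 4 libraries lay between 1.97 and 2.11 FPKM. The log2 difference was -0.01 (SE 0.43) for Ifnar1KO minus Sle1b and -0.42 (SE 0.43) for GC minus non-GC. The highest level of Tlr3 in batch 3 (1.93 FPKM) lay near its median in batches 1 and 2 (2.01 FPKM).

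Tlr8 was listed at 0 in 10 of 12 libraries, including all 6 Ifnar1KO libraries. It lies on chromosome X from 167242696 to 167264329 (minus strand). Sle1b non-GC replicate 3 held 0.336 FPKM (about 5 reads) and Sle1b GC replicate 1 held 0.0966 FPKM (about 1 read). A count of 0 allows up to 3 reads, which is 0.109 to 0.367 FPKM in the 10 libraries listed at 0, counting error only. Mouse Tlr8, unlike the human receptor, is not known as a main sensor of single-stranded RNA.

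Unc93b1, the chaperone that delivers these receptors to endosomes, differed most with cell type in Ifnar1KO. It lies on chromosome 19 from 3935186 to 3949647 (plus strand). In Ifnar1KO it measured 22.7, 21.2 and 1.70 FPKM in GC cells (15.2 ± 11.7, SD, n = 3), against 58.4, 69.0 and 5.05 FPKM in non-GC cells (44.1 ± 34.3, SD, n = 3). GC cells held the lower level in all 3 batches, as did 19.2% of all tested genes. In Sle1b it measured 37.2, 45.8 and 0.787 FPKM in GC cells, against 54.1, 52.7 and 0.350 FPKM in non-GC cells. There GC cells were lower in batches 1 and 2 and higher in batch 3, where the libraries held about 6 and 4 reads.

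The log2 difference of GC minus non-GC for Unc93b1 was -1.38 in Ifnar1KO (SE 0.57, unadjusted p = 0.032, limma adjusted p = 0.367) and -0.11 in Sle1b (SE 0.57, adjusted p = 0.972). At an unadjusted p under 0.05, 10.1% of all tested genes were lower in Ifnar1KO GC cells. As the mean of both genotypes the difference was -0.74 (SE 0.40, adjusted p = 0.354), and without batch 3 it was -0.93 (SE 0.27, unadjusted p = 0.0084, adjusted p = 0.10). The interaction was -1.27 (SE 0.81, adjusted p = 0.992), a value of -0.73 when Sle1b non-GC replicate 3 was left out, so the effect was not shown to differ between genotypes. Among non-GC cells Unc93b1 was higher in the Ifnar1KO library of each batch, as were 10.8% of all tested genes. The log2 difference there was 0.88 (SE 0.57) with batch 3 and 0.24 (SE 0.38) without it. Among GC cells the Ifnar1KO library was lower in batches 1 and 2 and higher in batch 3. The log2 difference there was -0.39 (SE 0.57) with batch 3 and -0.88 (SE 0.38, limma adjusted p = 0.548) without it. Between genotypes, as the mean of both cell types, the log2 difference of Ifnar1KO minus Sle1b was 0.25 (SE 0.40) with batch 3 and -0.32 (SE 0.27) without it. Its sign thus rests on batch 3.

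**Figure D3:**
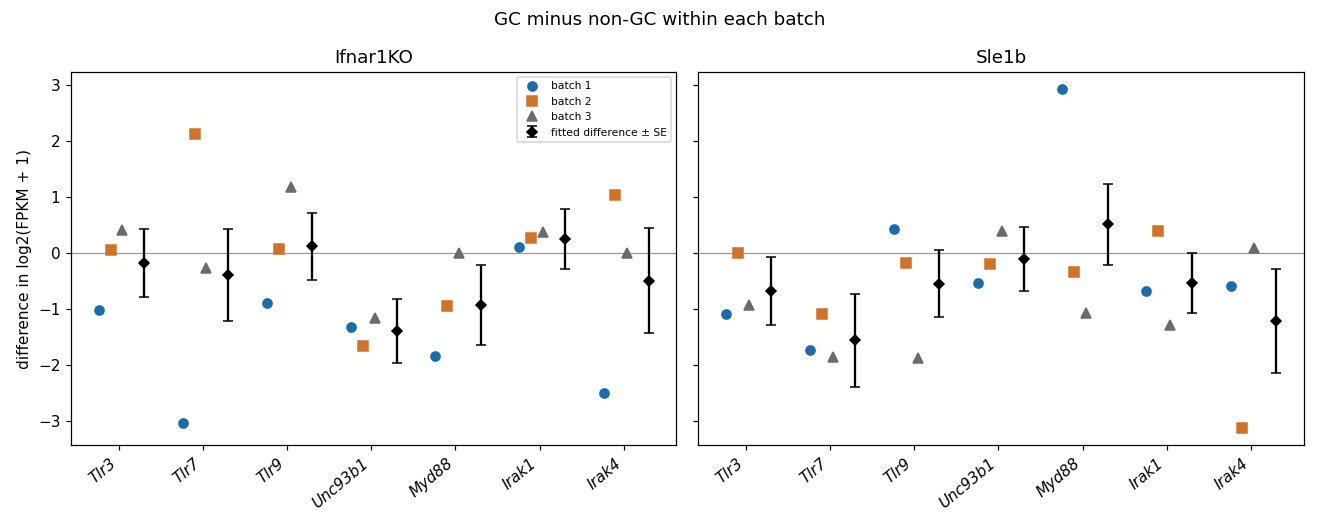
Difference in log2(FPKM + 1), GC minus non-GC, in Ifnar1KO (left) and Sle1b (right) for the 7 tested genes, per batch (symbols) and as fitted (diamonds, bars are SE). Unc93b1 in Ifnar1KO lies at -1.32, -1.66 and -1.16 in the 3 batches, and Tlr7 in Sle1b at -1.72, -1.09 and -1.86.

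Tlr7 was also lower in Sle1b GC than in Sle1b non-GC cells in all 3 batches, as were 14.2% of all tested genes, with a log2 difference of -1.56 (SE 0.83, adjusted p = 0.579). In Ifnar1KO its direction split between batches: Tlr7 was lower in GC cells in batches 1 and 3 and higher in batch 2. As the mean of both genotypes it was -0.97 (SE 0.58, adjusted p = 0.404). All 7 tested members lay below 0 for GC minus non-GC as the mean of both genotypes, with a median of -0.42. Over all tested genes 64.3% lay below 0, with a median of -0.25. Without batch 3 Irak1 lay above 0, at 0.022. With median scaling Irak1 (0.16), Myd88 (0.091) and Tlr9 (0.090) lay above 0. Within batches 1 and 2, more unnamed loci lay above 0 in GC than in non-GC libraries in all 4 pairs (61655 against 18220 and 35379 against 27614 in Ifnar1KO; 55667 against 10129 and 17630 against 13657 in Sle1b). In batch 3 fewer lay above 0 in GC than in non-GC libraries (104048 against 160601 in Ifnar1KO and 143922 against 208065 in Sle1b). Library content thus moved with cell type in batches 1 and 2, and the other way in batch 3. Its part in the differences of GC minus non-GC was not tested.

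Myd88, the adaptor shared by Tlr7, Tlr8 and Tlr9, was listed at 0 in all 3 Ifnar1KO GC libraries. It measured 2.59, 0.916 and a listed 0 FPKM in Ifnar1KO non-GC cells, 10.5, 2.06 and a listed 0 FPKM in Sle1b GC cells, and 0.499, 2.84 and 1.09 FPKM in Sle1b non-GC cells. A single library, Sle1b GC replicate 1, stood above all others, with about 65 reads. The log2 difference of Ifnar1KO minus Sle1b in GC cells was -1.71 (SE 0.72, unadjusted p = 0.033, limma adjusted p = 0.741), and 5.31% of all tested genes were lower there at an unadjusted p under 0.05. Without batch 3, where both GC libraries were listed at 0, it was -2.57 (SE 0.85, adjusted p = 0.47). Without Sle1b GC replicate 3 it was -2.39. Without Sle1b GC replicate 1 it was -0.86 (SE 0.67). As the mean of both cell types it was -0.99 (SE 0.51, adjusted p = 0.993), and -0.56 without that library, and for GC minus non-GC as the mean of both genotypes -0.21 (SE 0.51).

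The value of Myd88 is uncertain. The gene (GENCODE, GRCm38, chromosome 9 from 119335934 to 119341411, minus strand) overlaps Acaa1a and Slc22a14, and the tables gave it a locus from 119169455 to 119393797 shared with 7 other named genes. Acaa1a, which runs on the opposite strand, measured 4.16 to 15.9 FPKM over the 12 libraries and was never listed at 0. Neutrophils and monocytes also express Myd88. The summed level of 5 neutrophil markers was 131.6 FPKM in Sle1b GC replicate 1 and 0 to 20.3 FPKM in the other 11 libraries. It rested there on S100a9 (69.9 FPKM) and S100a8 (60.2 FPKM). The remaining markers did not follow: in that library Retnlg was listed at 0, Ly6g stood at 0.373 FPKM and Csf3r at 1.09 FPKM. Ly6g was highest in Sle1b non-GC replicate 3 (10.8 FPKM) and Csf3r in Sle1b GC replicate 3 (3.37 FPKM). The summed level of 12 macrophage and monocyte markers was 81.0 FPKM in Sle1b GC replicate 1. It was 0.0681 to 72.1 FPKM in the others. Lyz2 (28.4 FPKM), C1qc (8.64 FPKM), Fcer1g (5.11 FPKM), C1qb (4.70 FPKM) and Csf1r (2.27 FPKM) were each highest in Sle1b GC replicate 1. Tyrobp, Cd68, Cst3, Itgam, Adgre1 and Cd14 were each highest in another library, and C1qa was listed at 0 in every library. The part of such cells in the Myd88 value was not tested.

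The region before the start of Myd88 is shown because the study removes an interferon receptor chain. RefSeq (GRCm38.p6) gave such regions for 6 of the 8 members, with none for Tlr7 and Unc93b1. Within 250 bases before the start, both strands were searched for GAAANNGAAA, the core of the interferon-stimulated response element, and TTCNNNGAA, the core of the gamma-activated site, which reads the same on both strands. Myd88 held GAAANNGAAA from 40 to 31 bases before the start and TTCNNNGAA from 46 to 38 bases before it, and the pair overlap by 3 bases. Tlr8 held TTCNNNGAA from 106 to 98 bases before its start. Tlr3, Tlr9, Irak1 and Irak4 held neither in this window. Of 32851 such regions of all genes, 2.98% held GAAANNGAAA and 7.02% held TTCNNNGAA. A match is a run of letters, not a shown binding site. RefSeq starts Myd88 at base 119340018, inside the GENCODE gene. GENCODE starts its transcripts at 119340002, 119340041 and 119341411. On the minus strand the window thus lies wholly before the RefSeq start and before the start at 119340002. It reaches past the start at 119340041 and lies wholly after the start at 119341411. The Myd88 region is chr9:119340019-119340268 (minus strand) and the Tlr9 region, shown beside it as one with no match, is chr9:106222348-106222597 (plus strand). Both read 5′ to 3′ along the gene, and capitals mark the matched letters.
Myd88: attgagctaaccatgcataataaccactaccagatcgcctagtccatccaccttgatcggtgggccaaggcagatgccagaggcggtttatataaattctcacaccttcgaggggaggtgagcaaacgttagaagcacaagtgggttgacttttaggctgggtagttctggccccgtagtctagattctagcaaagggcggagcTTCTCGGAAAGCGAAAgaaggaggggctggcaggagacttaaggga
Tlr9: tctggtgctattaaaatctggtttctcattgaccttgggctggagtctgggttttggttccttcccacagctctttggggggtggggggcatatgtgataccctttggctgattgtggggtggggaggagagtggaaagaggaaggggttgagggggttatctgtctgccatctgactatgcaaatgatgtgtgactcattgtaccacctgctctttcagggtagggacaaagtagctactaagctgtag

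Irak1, the kinase activated after Irak4, stayed between 11.2 and 22.8 FPKM in batches 1 and 2. It lies on chromosome X from 74013914 to 74023936 (minus strand) and contains the microRNA genes Mir718 and Mir5132. It measured 18.7, 22.1 and 0.295 FPKM in Ifnar1KO GC cells and 17.4, 18.1 and a listed 0 FPKM in Ifnar1KO non-GC cells. In Sle1b it measured 13.9, 14.9 and a listed 0 FPKM in GC cells and 22.8, 11.2 and 1.44 FPKM in non-GC cells. In GC cells Irak1 was higher in Ifnar1KO than in Sle1b in all 3 batches, as were 3.05% of all tested genes, by 0.40, 0.54 and 0.37 on the log2 scale; the difference in batch 3 is one of about 7 reads against none. In Ifnar1KO, the Irak1 level of the GC library exceeded that of its non-GC partner in each of the 3 batches, as it did for 3.86% of all tested genes. As the mean of both cell types the log2 difference of Ifnar1KO minus Sle1b was 0.05 (SE 0.38), and for GC minus non-GC it was -0.14 (SE 0.38).

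Irak4, the first kinase recruited by Myd88, was the most variable of the abundant members. It lies on chromosome 15 from 94543643 to 94589889 (plus strand) and overlaps Twf1 in the annotation. It measured 1.5, 28 and a listed 0 FPKM in Ifnar1KO GC cells and 13.1, 13.1 and a listed 0 FPKM in Ifnar1KO non-GC cells. In Sle1b it measured 7.25, 1.14 and 2.21 FPKM in GC cells and 11.4, 17.7 and 2.0 FPKM in non-GC cells. The highest and, outside batch 3, the next to lowest of its values were both in Ifnar1KO GC libraries, about 229 and 22 reads. The GC groups overlapped in full. The log2 difference of Ifnar1KO minus Sle1b was -0.24 (SE 0.66) and that of GC minus non-GC was -0.85 (SE 0.66, adjusted p = 0.525). Single libraries moved the second value, to -0.21 without Sle1b GC replicate 2, -0.42 without Ifnar1KO GC replicate 1, -1.30 without Sle1b GC replicate 3 and -1.42 without Ifnar1KO GC replicate 2. Without batch 3 it was -1.29.

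As a set, 5 of the 7 tested members lay below 0 and 2 above 0 for Ifnar1KO minus Sle1b as the mean of both cell types, with a median log2 difference of -0.16. All tested genes had a median of -0.12, with 60.5% below 0. In GC cells alone 3 members lay below 0 and 4 above, with a median of 0.12. All tested genes had a median of -0.25 there, with 63.4% below 0. In non-GC cells 6 lay below 0 and 1 above, with a median of -0.34. All tested genes had a median of 0.01 there, with 48.8% below 0. These directions rest in part on batch 3. Without it Tlr9, Myd88 and Irak1 changed sign in non-GC cells, to 0.20, 0.13 and 0.14, against a median of 0.14 for all tested genes. In GC cells Tlr3 and Tlr9 changed sign, to -0.43 and -0.33, against a median of -0.21. Of 21 pairs of tested members, 17 had a Pearson r above 0 over the 12 libraries after each batch was centred, from -0.48 for Unc93b1 and Irak1 to 0.62 for Tlr9 and Irak1, with a median of 0.24. These libraries share batch, depth and group, and no share over pairs of all tested genes is given beside these. The r values are thus descriptions and do not show that the members vary together more than other genes.

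The genes whose batch-centred pattern over the 12 libraries was most like a member's were different for each. For Tlr7 they were Gm4767 (r = 0.93), Slfn8 (r = 0.91) and Gm10778 (r = 0.88). For Tlr9 they included Cct8 (r = 0.94) and Grk1 (r = 0.91), and for Tlr3 they were Hnrnph3 (r = 0.87), Cbll1 (r = 0.87) and D15Ertd621e (r = 0.86). For Unc93b1 they were Ift27 (r = 0.94), Ccdc137 (r = 0.94) and Fto (r = 0.94). For Myd88 they were Setdb1 (r = 0.95), 1700021F05Rik (r = 0.94) and Sipa1 (r = 0.93). For Irak1 they were Gm12564 (r = 0.94), Sept2 (r = 0.93) and Gm13135 (r = 0.92). For Irak4 they were Gm37123 (r = 0.96), the shared locus of Ctnnd1, Gm28635 and Tmx2 (r = 0.95), and Ears2 (r = 0.91). With 14607 genes and 12 libraries, values of this size are to be read as likeness in these libraries only.

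The rest of the pathway was read from 8 lists holding 132 genes, of which 113 were tested. No gene of any list passed the test in any comparison with 12 libraries. The list values below are log2 differences, given as the mean over both cell types or both genotypes. The named genes are among the 2 most positive and the 2 most negative of each list. They were picked by these same differences, so their counts of pairs follow in part from that choice. Their adjusted p lay between 0.993 and 0.999 for Ifnar1KO minus Sle1b and between 0.114 and 0.931 for GC minus non-GC, and their SE between 0.336 and 0.665. These values are unsteady: of the 63 differences the rule chooses, 37 moved by over 1.5 times or changed sign without batch 3, and 41 did so when some single library was left out.

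Of 10 tested genes among the other Toll-like receptors and co-receptors, 4 lay above and 6 below 0 for Ifnar1KO minus Sle1b, with a median of -0.12. Ly96, which with Tlr4 binds lipopolysaccharide, was at 0.90 and the lipopeptide receptor subunit Tlr1 at 0.50, while Tlr4 was at -0.75 and Ly86, the partner of Cd180, at -0.71. Without batch 3 Tlr4 was at -0.20 and Ly86 at -0.11, and without Ifnar1KO GC replicate 3 alone Ly86 was at -0.12. In the comparison of GC with non-GC cells, 3 lay above and 7 below 0, with a median of -0.33. Tlr4 was at -1.66, with median levels of 1.05 FPKM in GC and 8.49 FPKM in non-GC libraries, and Ly86 at -1.45 (-0.95 without batch 3), lower in GC cells in 6 of 6 pairs. Tlr11 was at 0.78 and Tlr12 at 0.36, both with medians under 1 FPKM.

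Of 12 tested chaperones, trafficking factors and proteases of endosomal receptors, 4 lay above and 8 below 0 for Ifnar1KO minus Sle1b, with a median of -0.21. The protease Ctsl was at 0.28, the chaperone Hsp90b1 at 0.20, and the proteases Ctss and Ctsb at -0.58 and -0.56 (-0.87 and -0.32 without batch 3). Between cell types, 3 lay above and 9 below 0, with a median of -0.21. Ctss was at -1.15, and without batch 3 at -2.38 (adjusted p = 0.0176), where it passed the test. Bloc1s1, a subunit of a lysosome-positioning complex whose locus in the tables is shared with Rdh5, was at -1.06 and lower in GC cells in 6 of 6 pairs. The adaptor complex subunit Ap3d1 was at 0.28 and the chaperone Cnpy3 at 0.10.

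Of 10 tested genes that degrade or bind nucleic acids, 1 lay above and 9 below 0 for Ifnar1KO minus Sle1b, with a median of -0.09. The nucleases Pld4 and Pld3 were at 0.02 and -0.01, the exonuclease Trex1, whose locus is shared with Atrip, at -0.47 (-0.13 without batch 3), and Fcgr2b, the inhibitory Fc receptor of B cells, at -0.32. Pld3 was counted among the 2 most positive although it lay below 0. Between GC and non-GC cells, 2 lay above and 8 below 0, with a median of -0.34. The extracellular nuclease Dnase1l3 was at 0.79 and Trex1 at 0.42, while Pld3 was at -1.08 and Samhd1, which hydrolyses deoxynucleotides, at -0.84.

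Of 20 tested adaptors and kinases downstream, 7 lay above and 13 below 0 for Ifnar1KO minus Sle1b, with a median of -0.20. The kinase Map3k8 was at 0.83 and Ikbkb at 0.29, while Ikbkg, the regulatory subunit of the same IKK complex, was at -1.32 and Irak2, a kinase related to Irak1, at -1.20. Without batch 3 Ikbkg was at -0.22 and Irak2 at -0.69; Ikbkg was at -0.79 without Sle1b non-GC replicate 3 alone and at -0.81 without Ifnar1KO non-GC replicate 3 alone. Irak2 was lower in Ifnar1KO in 5 of 6 pairs, with median levels of 6.39 FPKM in Ifnar1KO and 14.9 FPKM in Sle1b libraries. In GC minus non-GC, 5 lay above and 15 below 0, with a median of -0.32. Map3k8 was at -2.02 and Irak2 at -1.29 (-0.86 without batch 3), lower in GC cells in 5 of 6 and 6 of 6 pairs, whereas Ikbke was at 0.18 and Pik3ap1 at 0.17.

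Of 11 tested transcription factors, 6 lay above and 5 below 0 for Ifnar1KO minus Sle1b, with a median of 0.14. Relb was at 0.39 and Fos at 0.31, whereas Irf7 and Irf5, which act downstream of Tlr7 and Tlr9, were at -1.15 and -0.70. Relb was at 0.18 without batch 3, and Irf7 at -0.56 without Ifnar1KO non-GC replicate 1. In the comparison of GC with non-GC cells, 1 lay above and 10 below 0, with a median of -0.47. Irf7 was at 0.76 and Fos at -0.15. Irf4 was at -0.96 and Rel at -0.88, each lower in GC cells in 6 of 6 pairs. Of all tested genes, 18.9% were lower in GC cells in at least 5 of 6 pairs.

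Of 14 tested inhibitors, 3 lay above and 11 below 0 for Ifnar1KO minus Sle1b, with a median of -0.18. Nfkbie was at 0.28 and Peli1 at 0.04, while Usp18, which restrains interferon receptor signalling and is itself induced by interferon, was at -1.75 and Nfkbib at -0.47. Between cell types, 5 lay above and 9 below 0, with a median of -0.32. Tnfaip3, a deubiquitinase that limits NF-kB signalling, was at 1.11 and Tnip1 at 0.28. Irak3, the kinase-like inhibitor of this pathway, was at -1.49, with median levels of 5.25 FPKM in GC and 27.7 FPKM in non-GC libraries, and the kinase Lyn was at -1.39. Both were lower in GC cells in 6 of 6 pairs.

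Of 12 tested target genes in B cells, 3 lay above and 9 below 0 for Ifnar1KO minus Sle1b, with a median of -0.39. Cd40 was at 0.40 and Tbx21 at 0.28, while Nfkbid was at -1.11 and Tnf at -0.89 (-0.65 and -1.71 without batch 3). Between GC and non-GC cells, 5 lay above and 7 below 0, with a median of -0.17. Without batch 3 the median was 0.20. The costimulatory ligand Cd86 was at 1.38. Without batch 3 it passed the test, at 1.61 (adjusted p = 0.0393). Cd40 was at -1.04 (-0.64 without batch 3) and the early activation marker Cd69 at -0.73.

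Interferon-stimulated genes were the list farthest from the median of all tested genes between genotypes. Of 26 tested, 4 lay above and 22 below 0 for Ifnar1KO minus Sle1b, with a median of -0.96 against -0.12 for all tested genes, and without batch 3 the median was -1.36 against -0.04. Isg20, a nuclease, was at -2.34 and lower in Ifnar1KO in 6 of 6 pairs, with median levels of 0.914 FPKM in Ifnar1KO and 7.04 FPKM in Sle1b libraries, and Ifi27l2a was at -2.42 (-3.63 without batch 3). Ifit2 was at 0.52 (0.14 without batch 3) and Ddx58, a cytosolic RNA sensor, at 0.47. In GC minus non-GC, 8 lay above and 18 below 0, with a median of -0.39. Irf7 was at 0.76 and the chemokine Cxcl10 at 0.52, while Oas1a was at -1.39 and the nucleic acid sensor Zbp1 at -1.27 (-0.68 and -0.51 without batch 3).

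**Figure D4:**
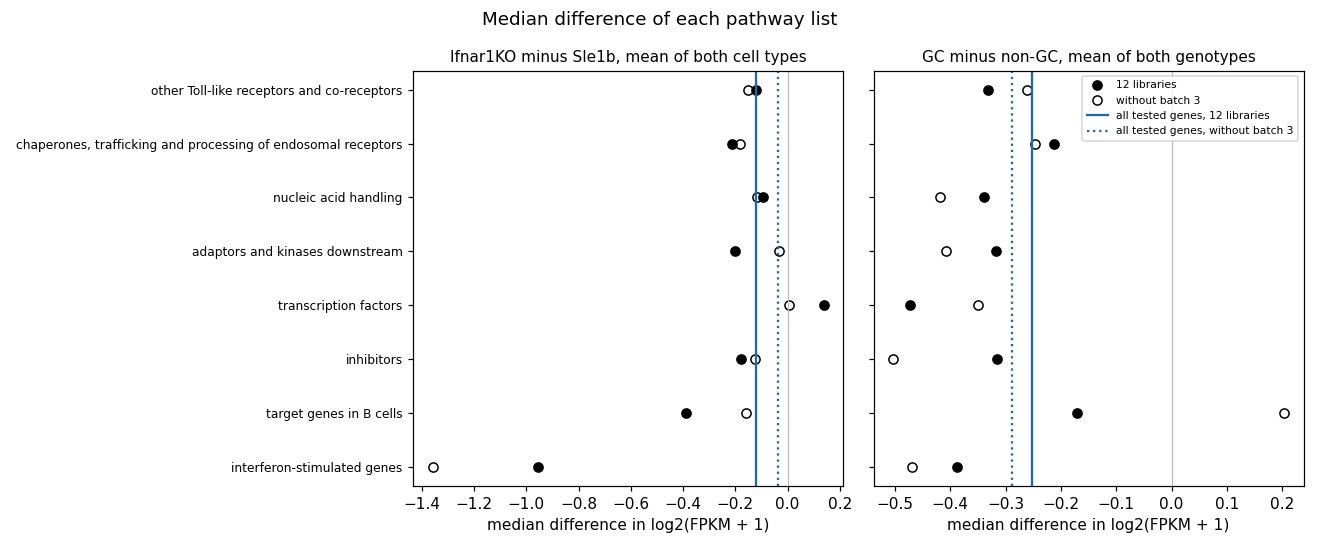
Median difference in log2(FPKM + 1) of each pathway list for Ifnar1KO minus Sle1b (left) and GC minus non-GC (right), with all 12 libraries (filled) and without batch 3 (open); vertical blue lines mark the median of all tested genes. Interferon-stimulated genes lie at -0.96 for Ifnar1KO minus Sle1b, apart from the other lists, which lie between -0.39 and 0.14.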

How the data were processed

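RNA was measured in 12 libraries of sorted splenic B cells, in 4 groups of 3. Per the labels' protocols, cDNA came from an ultra-low-input SMARTer kit with Nextera XT libraries; strand is not stated to be kept, so overlapping genes cannot be told apart. The submitters' processing notes name TopHat2 2.0.9, Bowtie2 2.1.0, Cuffdiff, Cufflinks 2.2.1 and CASAVA, and the mouse genome GRCm38 (mm10). Each of the 17 deposited tables gave the FPKM of 2 libraries of 1 batch at 506504 loci, normalized by the authors within that table, with the authors' q-value for that pair. The table of Sle1b GC against Sle1b non-GC cells of batch 1 was not used here.

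Loci of 1 symbol were summed, and the values of a library, which differed between its tables by a constant factor, were scaled within a batch by least squares. Levels set side by side across batches thus come from separately normalized tables, and tests used differences within batches. An exact 0 can be a failed estimate, so such values are given as listed at 0, with no fold against them. Low values of loci of 800 to 2500 bases, between 0.5 and 5.5 reads, were whole multiples of 1 read within 0.1 read for 100% of loci in each library, which gave the read numbers; these take the longest coding transcript in GENCODE (release used with GRCm38) and are estimates, used for depth and in no test.

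Genes that reached 1 FPKM in 3 or more of 12 libraries were tested with limma 3.58.1 in R 4.3.3 on log2(FPKM + 1), which understates changes of low genes: a linear model with batch as block, moderated variances with a trend on mean level, 6 residual degrees of freedom, two-sided, Benjamini-Hochberg adjusted over 14607 genes, threshold 0.05. The batches come from the pairs that the deposited tables compare. Deviations from group means correlated within batches at 0.289, 0.401 and 0.524 or more, and with libraries of other batches at 0.455, 0.455 and -0.275 or less. The fit was tested on simulated data whose residual spread was capped below that of the members here, with changes in well expressed genes only. How the fit behaves at the members' own spread was thus not tested. Alternatives were another pseudocount, no filter, no block, median scaling, sample quality weights, leaving out batch 3, and leaving out each library.

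The members and lists were chosen with earlier results of these data known. All 8 members are named; of each pathway list, the 2 most positive and 2 most negative tested genes are named, here for the comparisons averaged over cell types or genotypes only, and for each tested member the 3 genes with the highest Pearson r. A few genes that these rules choose are not reported here. S100a8, S100a9, Ly6g, Csf3r, Retnlg, C1qa, Acaa1a and Siglech were named after their values were seen. So were the other single macrophage and monocyte markers. Promoter sequences are from RefSeq.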

Additional observations from a re-analysis of the deposited data

How the results depend on the processing

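No member passed the threshold under any of the 18 alternatives; the smallest adjusted p of a member over all comparisons was 0.10, for Unc93b1 (GC minus non-GC, mean of both genotypes) without batch 3. Of 22 member differences recomputed, 9 changed sign under at least 1 alternative, with 359 of 396 values keeping their sign. Those of Tlr7, of Unc93b1 in Ifnar1KO and of Myd88 between genotypes, in GC cells and as the mean, kept theirs. In size, 19 of the 22 moved by over 1.5 times or changed sign when some single library was left out, and 11 without batch 3. The cause of the changes below was not tested.

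The number of genes passing for GC minus non-GC as the mean of both genotypes was 4, 2 higher and 2 lower, and 1 with the pseudocount 0.1, 1 with no filter, 0 with no replicate block, 21 with median scaling (16 higher and 5 lower), 404 with sample quality weights, 393 without batch 3, and 1 to 13 when 1 library was left out. In Ifnar1KO it was 1, and 0 with no replicate block, 8 without batch 3 and 0 to 2 with 1 library left out. In Sle1b it was 0, and 3 with sample quality weights, 8 without batch 3 and 0 to 1 with 1 library left out. For Ifnar1KO minus Sle1b it was 0, and 8 in non-GC cells with sample quality weights and 0 to 1 in GC cells with 1 library left out; for the interaction of genotype and cell type it was 0 to 1.

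For GC minus non-GC as the mean of both genotypes, log2 differences with the opposite sign were, with median scaling, Irak1 0.16, Myd88 0.091, Tlr9 0.090 and Fos 0.15; with sample quality weights, Cnpy3 -0.019 and Fos 0.12; and without batch 3, Irak1 0.022, Ap3d1 -0.064, Cnpy3 -0.016, Fos 0.49 and Trex1 -0.078. In Sle1b alone, Unc93b1 was 0.023 with median scaling and 0.080 with the pseudocount 0.1. For Ifnar1KO minus Sle1b as the mean of both cell types they were, with median scaling, Tlr3 0.21, Tlr9 0.064 and Pld3 0.21; with the pseudocount 0.1, Irak1 -0.11, Tlr3 0.25 and Pld4 -0.45; with sample quality weights, Irak4 0.10, Tlr9 0.041, Unc93b1 -0.064, Hsp90b1 -0.17 and Peli1 -0.050; and without batch 3, Irak4 0.45, Unc93b1 -0.32, Ddx58 -0.030, Fcgr2b 0.060, Fos -0.011, Hsp90b1 -0.17, Ikbkb -0.043, Nfkbie -0.23, Peli1 -0.21 and Tlr1 -0.25.

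With 1 library left out, differences of GC minus non-GC that crossed 0 ranged from -0.38 to 0.074 (Irak1), -0.63 to 0.13 (Myd88), -0.42 to 0.046 (Tlr9), -0.66 to 0.21 (Unc93b1 in Sle1b), -0.019 to 0.64 (Ap3d1), -0.29 to 0.41 (Cnpy3), -0.56 to 0.51 (Fos), -0.48 to 0.59 (Ikbke) and -0.047 to 0.30 (Pik3ap1). Those of Ifnar1KO minus Sle1b ranged from -0.19 to 0.26 (Irak1), -0.88 to 0.21 (Irak4), -0.26 to 0.28 (Tlr3), -0.35 to 0.099 (Tlr9), -0.027 to 0.41 (Unc93b1), -0.34 to 0.75 (Fos), -0.15 to 0.43 (Hsp90b1), -0.061 to 0.55 (Ikbkb), -0.17 to 0.59 (Nfkbie), -0.30 to 0.35 (Peli1), -0.59 to 0.39 (Pld3) and -0.24 to 0.36 (Pld4). Cd86 (GC minus non-GC) passed with sample quality weights, at 1.49. Where 1 library is left out, the lone libraries are assumed to vary like those of the other groups. A member value listed at 0 allows up to 3 reads, 0.109 to 0.670 FPKM depending on gene and library.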
